A study of Mus musculus with 10 samples.

Results

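The Wnt feedback and TCF/LEF genes were followed through open chromatin in neural stem cell cultures of the adult mouse subependymal zone (SEZ), the germinal layer beside the lateral ventricle. The members were 10 genes, namely Axin2, Lef1, Tcf7, Tcf7l1, Tcf7l2, Ctnnb1, Nkd1, Lgr5, Sp5 and Dkk3, of 21951 protein-coding genes in the annotation. Their regions were all places where any library had a peak summit within the gene body or 50 kb of it (GENCODE M21, GRCm38). This gave 167 regions of 137454 in the whole series. Peaks from 5 or more of the 10 libraries were asked of a region before it was tested, which left 92 here and 70627 in all.

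In canonical Wnt signalling, a Wnt ligand bound to Frizzled and Lrp receptors disables the Axin-based destruction complex. The β-catenin protein made from Ctnnb1 then reaches the nucleus, where it joins the high mobility group (HMG) box factors of the TCF/LEF family and turns on target genes. Several targets, such as Axin2, Nkd1 and Lgr5, feed back on the pathway itself, and in the SEZ the pathway is known as one of the signals that set the balance between division and differentiation of progenitors.

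ATAC-seq, in which a transposase cuts accessible DNA, was available for 4 groups, each made from 50000 cells per library of cultures from mice aged 10 weeks. WT PRO (n = 3) and p27KO PRO (n = 2) were proliferating neurospheres kept in 20 ng/ml EGF and 10 ng/ml FGF and collected at 3 days in vitro (DIV) by the labels and methods, although another passage of the source text speaks of neurospheres grown for 5 days. WT DIFF (n = 3) and p27KO DIFF (n = 2) were collected at 2 + 1 DIV, after 2 days attached to Matrigel with FGF and then 24 h without mitogens in 2% fetal bovine serum, so that attachment and serum changed together with mitogen withdrawal. The p27KO mice lack the cyclin-dependent kinase inhibitor gene Cdkn1b in the germ line and were kept on a C57BL/6J background. The free-text descriptions of the p27KO libraries name WT cells, against their titles and genotype field. No p27KO library had a peak at the Cdkn1b start site, whereas each WT library did, and the same held for the start sites of the Y-linked genes Ddx3y, Kdm5d, Eif2s3y and Uty, so that genotype and the sex of the cultured cells cannot be told apart. Nothing in the labels ties the libraries of a group to separate animals, and the p-values therefore measure only the spread between these libraries.

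The deposited lists held 57534 to 91801 peaks per library, and the shortest and the longest lists of the WT DIFF group were 57534 and 88738 peaks. Read depth is unknown, and a longer list reaches weaker peaks. The level of a region is given as the percentile of its strongest peak, by fold enrichment, within its own list (100 for the strongest). A percentile still depends on list length, because the weak peaks added to a longer list raise the percentile of the peaks above them. Percentiles were not corrected for this, and the readings of overlap between groups below share this limit. A change is the difference between mean normal scores, the scores being taken from the rank of each region among all tested regions of a library, with regions without a peak tied in the lowest place. In a bulk library, fewer cells with a region open and a region less open in each cell cannot be told apart. All 8 neural stem or progenitor markers (8 of 8) had a start-site peak in all 10 libraries. So did 3 of 4 astrocyte, 3 of 5 neuron, 2 of 4 oligodendrocyte, 2 of 3 ependymal and 1 of 4 microglial markers. A start-site peak alone therefore does not single out progenitors. Of the markers of other cell types, the endothelial gene Pecam1 had a peak in all 5 PRO libraries (percentiles 48 to 72.8) and in 0 of 5 DIFF libraries, the microglial gene P2ry12 lay at 87.3 to 93.7 at PRO and 58.3 to 76.9 at DIFF, and Mag, Cx3cr1 and Tek had no peak in any library. Another microglial marker, Csf1r, had the opposite direction, with changes of 0.66 in WT and 1.13 in p27KO that did not pass the threshold (adjusted p = 0.178 and 0.0841), and Tmem119 changed by -0.66 and -0.96 (adjusted p = 0.0752 and 0.0515). The summed percentile of the 4 endothelial markers was 51.4 to 80.7 at PRO and 0 at DIFF, and that of the 4 microglial markers was 134 to 209 at PRO and 100 to 203 at DIFF. The endothelial sum was mostly that of Pecam1. Of the others, Cldn5 had a peak only in WT PRO replicate 2 (28) and Cdh5 only in p27KO PRO replicate 1 (13.8). The part of such cells in the changes below was not tested.

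At the level of the whole group the genes moved about as often as the genome. Between 73 and 117 peaks per library lay at the 10 genes, which was 0.115% to 0.136% of each list. In WT cells, 10 of the 92 tested regions (10.9%) were lower at DIFF than at PRO and 10 (10.9%) were higher (limma, Benjamini-Hochberg adjusted p under 0.05 over all tested regions), against a background of 10.1% lower and 9.15% higher. In p27KO cells, 6 regions (6.52%) were lower and 5 (5.43%) were higher, against 6.48% and 5.83% of all tested regions. The median change over the members was 0.04 in WT and 0.02 in p27KO, beside 0.03 and 0.04 over all tested regions. The WT count of 20 fell to 13, 11 and 12 without WT PRO replicate 1, WT PRO replicate 3 and WT DIFF replicate 1, and the p27KO count of 11 fell to 7, 6, 5 and 6 without p27KO PRO replicate 1, p27KO PRO replicate 2, p27KO DIFF replicate 1 and p27KO DIFF replicate 2.

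By presence alone, a region was taken as closed in a genotype when its peak was found throughout the PRO libraries and in none of the DIFF libraries, and as opened in the reverse case. Of the 167 regions, 8 (4.79%) closed and 2 (1.2%) opened in WT, against 3.12% and 1.34% of all merged regions. In p27KO, 12 (7.19%) closed and 3 (1.8%) opened, against 7.88% and 2.4%. These counts rest on few libraries: without WT DIFF replicate 3, which had the longest list of its group, 18 regions closed in WT, and without WT DIFF replicate 2, 4 opened. Without p27KO PRO replicate 1, p27KO PRO replicate 2 and p27KO DIFF replicate 2, 21, 28 and 23 regions closed in p27KO, and without each p27KO library in turn 5 to 11 opened. Leaving out a library loosens the rule, so a count could only stay the same or rise. The shares of all merged regions under the loosened rule were not computed.

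**Figure D1:**
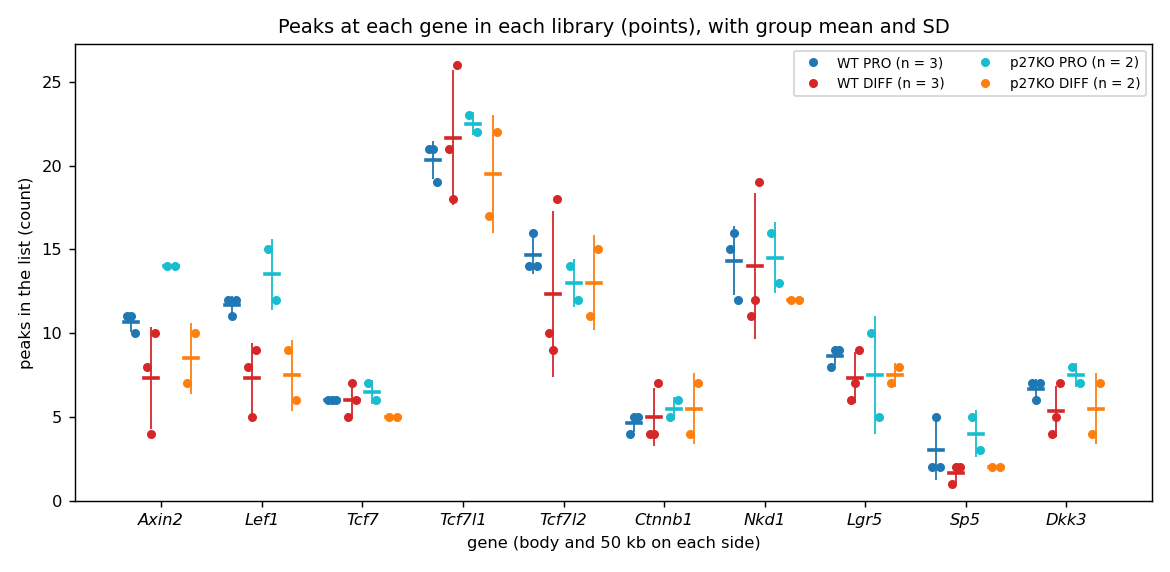
Number of peaks (vertical axis, count) in each library (points) at each gene and 50 kb on each side (horizontal axis), with the mean and SD of each group (bars). Tcf7l1, with 17 to 26 peaks per library, had the most, and Sp5, with 1 to 5, the fewest.

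For each gene, 1 start-site region was taken, with its summit nearest to an annotated start and within 3 kb of it. None of these passed the threshold in any comparison as fitted here. Under the alternatives the internal Tcf7l2 start alone passed it, in WT and with 1 filter. Of all 18 tested regions within 3 kb of any start of their own gene, 1 was called. It rose in WT and lay by an internal Nkd1 start, described below. Peaks stood at the start sites of Axin2, Tcf7, Tcf7l1, Tcf7l2, Ctnnb1, Nkd1 and Lgr5 in all 10 libraries. Lef1 had a weak one in 7 of 10, Sp5 had one in 1 of 10, and Dkk3 had none within 3 kb of a start in any library. Lef1 and Sp5 each also had a region less near to the 5′ start, but within 3 kb of a start, that was open in more libraries, as described below. Among start-site regions of all protein-coding genes, 4.82% passed the threshold between DIFF and PRO in WT and 2.3% in p27KO.

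**Figure D2:**
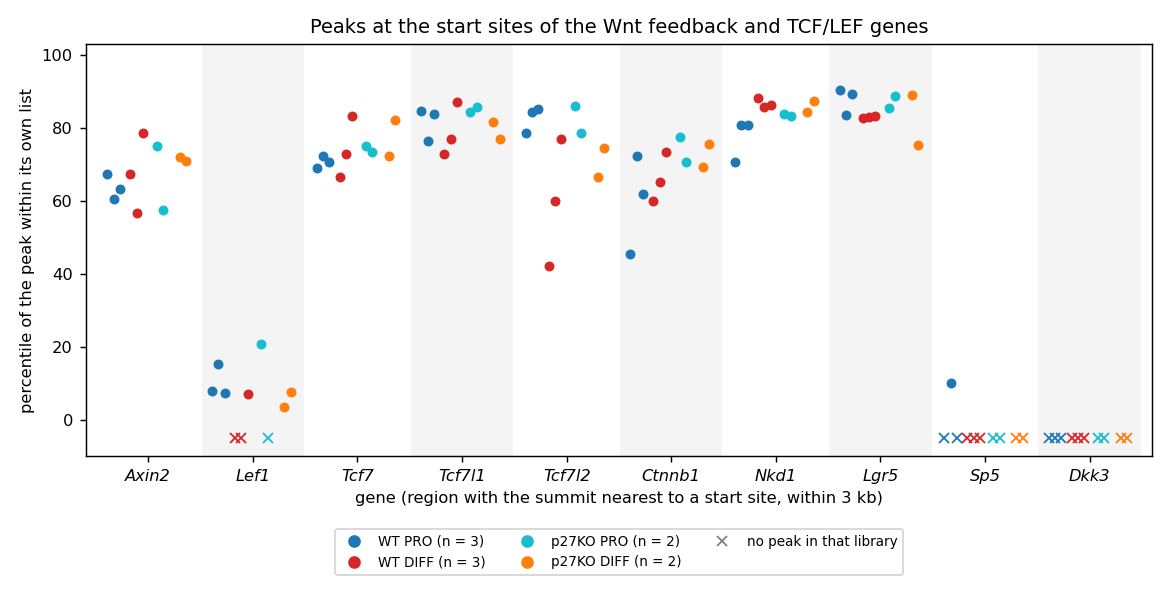
Percentile of the start-site peak within its own list (vertical axis) for each gene (horizontal axis) and library (points, coloured by group; crosses mark libraries without a peak). The 7 genes with a peak in every library sit between the 42.2 and 90.3 percentiles, whereas Lef1 lies at 20.7 or lower, Sp5 has 1 peak and Dkk3 none. Only the region nearest to a start is shown for each gene, which leaves out stronger regions within 3 kb at Lef1 and Sp5.

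Axin2 encodes a scaffold of the destruction complex and is the classic negative feedback target of the pathway. The gene lies on the plus strand of chr11:108920349-108950783, with no other protein-coding gene within 50 kb. Its start-site region (chr11:108920104-108921849) was at percentiles 67.4, 60.6 and 63.4 in WT PRO, 67.5, 56.7 and 78.5 in WT DIFF, 75 and 57.5 in p27KO PRO, and 71.9 and 71 in p27KO DIFF. The groups overlapped, and fold enrichment ranged from 5.76 to 9.26. The changes were 0.27 ± 0.18 (SE, adjusted p = 0.345, limma) in WT and 0.34 ± 0.22 (adjusted p = 0.376) in p27KO. Around the start, regions in and behind the gene moved in opposite directions. The region 38.2 kb from the start, behind the gene end (chr11:108958247-108959425), was at 42.3, 63.3 and 59.4 in WT PRO and had a peak only in replicate 3 of WT DIFF, at 30.1. In p27KO it was at 74.7 and 66.4 at PRO, and at DIFF it had a peak only in replicate 2, at 5.07. PRO and DIFF did not overlap in either genotype, and the region fell by 1.02 ± 0.21 in WT (adjusted p = 0.00601) and by 1.47 ± 0.26 in p27KO (adjusted p = 0.00395). The region at 63.3 kb (chr11:108983524-108983797) closed in both genotypes, from 32.4, 36.7 and 42.4 in WT PRO and 40.7 and 27.2 in p27KO PRO to no peak in any DIFF library. By rank it fell by 0.87 ± 0.21 in WT (adjusted p = 0.0159), a call lost without WT PRO replicate 3, and its change in p27KO was -0.65 (adjusted p = 0.146). It met the filter of 5 libraries only through its PRO peaks, so this test was not independent of the filter.

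Inside the Axin2 gene, an intronic region at 15.0 kb (chr11:108935154-108935784) went the other way in WT. It had a peak at 11 in 1 of 3 WT PRO libraries, at 26.1 and 41.4 in 2 of 3 WT DIFF libraries, and at 32.9, 30.1, 41.3 and 29 in the 4 p27KO libraries. It rose by 0.83 ± 0.24 in WT (adjusted p = 0.0334), and the call was lost without WT PRO replicate 2, WT PRO replicate 3, WT DIFF replicate 1 or WT DIFF replicate 3. A region at 2.8 kb before the start shows how the scale treats weak peaks. It lay at 24.6 to 31.9 in WT PRO and 0.289 to 8.43 in WT DIFF, yet its change was -0.17 ± 0.24 (adjusted p = 0.666), because a weak peak still ranks above every region without one.

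Axin2 is shown with its sequence because 5 of its 17 regions held TCF/LEF letters, among them those of the start site and of the intronic region at 15.0 kb. Such letters were not particular to Axin2, since 7 of 26 Nkd1 regions and 2 of 6 Sp5 regions also held them. Each window is 300 bp about the highest summit, on the plus strand of GRCm38, except that only 27 bases are given of exon 1, where the start-site window held the letters 78 bases after the annotated start. Capitals mark letters of 4 searched motifs on either strand, namely TCF/LEF (CTTTGAT or CTTTGAA), SOX (CATTGTT or CTTTGTT, which shares CTTTG with TCF/LEF), AP-1 (TGANTCA) and the E-box CAGCTG. The exon 1 site and the window at 15.0 kb hold the TCF/LEF letters, the latter also a SOX match, whereas the windows at 38.2 and 63.3 kb hold only a SOX match and, at 38.2 kb, an E-box.
Axin2 exon 1, chr11:108920417-108920443: gccggctgcgCTTTGATaaggtcctgg
Axin2 +15.0 kb, chr11:108935199-108935498: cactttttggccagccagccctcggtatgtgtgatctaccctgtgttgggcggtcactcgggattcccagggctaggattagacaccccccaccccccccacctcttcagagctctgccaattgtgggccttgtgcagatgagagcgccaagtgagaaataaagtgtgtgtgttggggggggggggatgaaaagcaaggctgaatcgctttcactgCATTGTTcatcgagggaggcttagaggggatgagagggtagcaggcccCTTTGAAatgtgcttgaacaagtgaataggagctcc
Axin2 +38.2 kb, chr11:108958365-108958664: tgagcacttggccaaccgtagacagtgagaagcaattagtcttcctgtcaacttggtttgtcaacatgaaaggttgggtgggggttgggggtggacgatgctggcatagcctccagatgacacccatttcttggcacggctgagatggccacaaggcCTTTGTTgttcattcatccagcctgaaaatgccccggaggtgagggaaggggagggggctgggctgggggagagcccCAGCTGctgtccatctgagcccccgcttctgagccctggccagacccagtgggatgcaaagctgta
Axin2 +63.3 kb, chr11:108983478-108983777: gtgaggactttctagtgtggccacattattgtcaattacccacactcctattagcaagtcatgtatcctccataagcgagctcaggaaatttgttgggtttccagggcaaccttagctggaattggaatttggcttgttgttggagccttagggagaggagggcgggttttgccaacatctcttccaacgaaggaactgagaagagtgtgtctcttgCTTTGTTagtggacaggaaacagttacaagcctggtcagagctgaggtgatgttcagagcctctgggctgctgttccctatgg

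Over all members, 16 of the 92 tested regions (17.4%) held TCF/LEF letters, beside 9.46% of the 70509 tested regions with a chromosome sequence. SOX letters were in 15.2% against 13.5%, AP-1 letters in 10.9% against 10.9%, and the E-box in 32.6% against 26.7%. Of the 11 member regions that were lower at DIFF in either genotype, 1 held TCF/LEF letters and 6 the E-box, where over all lower regions the shares were 10.8% and 40.4%. Of the 12 that were higher, 2 held TCF/LEF letters and 2 the E-box, beside 10.5% and 21.3% of all higher regions. AP-1 letters were in 2 of the 11 lower and 0 of the 12 higher member regions. Over all regions they were in 27.6% of the lower and 7.13% of the higher. These shares are a description of letters, not of bound factors, and the members' windows were also slightly richer in G and C (median 53.3% against 51%).

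Nkd1 encodes an inhibitor that binds Dishevelled and is itself induced by the pathway. It lies on the plus strand of chr8:88521354-88594884. The start site (chr8:88520921-88522179) was at 70.8, 80.9 and 80.9 in WT PRO, 88.2, 85.8 and 86.3 in WT DIFF, 83.8 and 83.2 in p27KO PRO, and 84.5 and 87.3 in p27KO DIFF. DIFF was above PRO in every WT library, but the change of 0.45 ± 0.18 did not pass the threshold (adjusted p = 0.111), nor did that of 0.26 ± 0.22 in p27KO (adjusted p = 0.524). Within its introns, neighbouring regions moved apart. At 46.6 kb (chr8:88567787-88568333), the region had a peak in all 10 libraries and rose from 45.5, 35.6 and 24.1 to 64.7, 72.7 and 74.5 in WT, and from 53 and 46.3 to 76.1 and 80.1 in p27KO. The conditions did not overlap, with changes of 1.08 ± 0.18 in WT (adjusted p = 0.002) and 1.06 ± 0.22 in p27KO (adjusted p = 0.0106, lost without p27KO PRO replicate 2 or p27KO DIFF replicate 2). The next region, at 48.2 kb (chr8:88569390-88569762), closed in both genotypes, from 34.6, 49.5 and 22.7 in WT PRO and 25.2 and 16.6 in p27KO PRO to no peak in any DIFF library. Its change by rank was -0.84 ± 0.23 in WT (adjusted p = 0.027, lost without WT PRO replicate 1, WT PRO replicate 2 or WT DIFF replicate 3) and -0.31 ± 0.28 in p27KO (adjusted p = 0.547). This region met the filter of 5 libraries only through its PRO peaks, so its test was not independent of the filter. Further along the gene, regions at 58.5 kb, by an internal start, and at 109.9 kb, inside the neighbouring Snx20, rose in WT (0.98 and 0.76, adjusted p = 0.0377 and 0.0294), and one 21.1 kb before the start rose in p27KO (0.96, adjusted p = 0.0373). Each of these 3 calls was lost without any 1 of at least 3 libraries.

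The neighbouring Nkd1 windows are printed side by side since they lie next to each other and changed in opposite directions. With capitals as above, the rising window holds 1 E-box and the closing window 3, and neither holds TCF/LEF, SOX or AP-1 letters.
Nkd1 +46.6 kb, chr8:88567833-88568132: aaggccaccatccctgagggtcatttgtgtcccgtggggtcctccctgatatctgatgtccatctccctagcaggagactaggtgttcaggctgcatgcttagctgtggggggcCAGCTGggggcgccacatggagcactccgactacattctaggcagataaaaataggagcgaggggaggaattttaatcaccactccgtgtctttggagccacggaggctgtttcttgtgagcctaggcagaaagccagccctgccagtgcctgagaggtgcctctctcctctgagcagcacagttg
Nkd1 +48.2 kb, chr8:88569418-88569717: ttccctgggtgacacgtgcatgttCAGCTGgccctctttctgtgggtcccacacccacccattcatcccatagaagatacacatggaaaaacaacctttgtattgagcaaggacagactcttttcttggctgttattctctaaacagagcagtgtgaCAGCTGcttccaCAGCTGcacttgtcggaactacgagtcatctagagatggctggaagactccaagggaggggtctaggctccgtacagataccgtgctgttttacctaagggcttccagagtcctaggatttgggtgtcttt

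Lgr5 encodes a receptor for R-spondins, which strengthen Wnt signalling, and marks stem cells of several epithelia. Its start site (chr10:115586820-115588202, minus strand) was among the strongest of the group, at 90.3, 83.5 and 89.4 in WT PRO, 82.7, 82.9 and 83.2 in WT DIFF, 85.4 and 88.8 in p27KO PRO, and 89 and 75.3 in p27KO DIFF. WT DIFF lay below WT PRO in every library, by 0.14 ± 0.21 in normal score (adjusted p = 0.693). The only region of its window past the threshold was the start site of another gene, A930009A15Rik, which fell by 0.74 ± 0.20 in WT (adjusted p = 0.0227) and changed by -0.16 in p27KO (adjusted p = 0.745). That call was lost without WT PRO replicate 2, WT PRO replicate 3 or WT DIFF replicate 1. A region 29.9 kb before the start closed in WT, from 62.4, 48 and 38.8 to no peak, but in p27KO it had a peak in 1 of 2 PRO (69.6) and 1 of 2 DIFF libraries (67.2), and no contrast there passed the threshold.

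Sp5, a zinc-finger transcription factor and direct target of the pathway, had a start-site peak only in WT PRO replicate 2, at the 10.1 percentile. A region 1.8 kb into the gene (chr2:70476295-70476916) was open in 9 of 10 libraries, at 76.5, 38.8 and 68.6 in WT PRO, 16.2 and 56.5 in WT DIFF replicates 2 and 3, 70.3 and 65.7 in p27KO PRO, and 46.9 and 57.2 in p27KO DIFF. PRO and DIFF overlapped in WT but not in p27KO, where DIFF was lower, and the changes of -0.74 ± 0.31 (adjusted p = 0.123) and -0.19 ± 0.38 (adjusted p = 0.808) did not pass the threshold. The Sp5 promoter is shown because it was the only member promoter in the RefSeq table, which held 8 of the 10 genes, with TCF/LEF letters in the window from 250 bases before to 50 after the start. Such letters occurred in 8.65% of 32815 promoter windows. The 250 bases before the start are given (GRCm38.p6, plus strand), with the TCF/LEF match beginning 104 bases before it and a SOX match further upstream.
Sp5 promoter, chr2:70474673-70474922: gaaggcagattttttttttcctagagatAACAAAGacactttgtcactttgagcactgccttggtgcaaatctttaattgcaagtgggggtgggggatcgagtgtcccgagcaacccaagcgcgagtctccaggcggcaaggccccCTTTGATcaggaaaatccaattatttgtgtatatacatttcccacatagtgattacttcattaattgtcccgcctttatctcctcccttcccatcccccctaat

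Dkk3, a secreted member of the Dickkopf family, had no start-site peak, but 7 of its 9 regions were tested. One 45.5 kb before the start (chr7:112204141-112204929) was at 59.1, 29.8 and 42.4 in WT PRO and at 20.5 in WT DIFF replicate 3 alone, and at 43.9 and 46.3 in p27KO PRO with no peak in p27KO DIFF. PRO was above DIFF in both genotypes, by 0.80 ± 0.21 (adjusted p = 0.0201) and 0.94 ± 0.25 (adjusted p = 0.035). The call was lost without WT PRO replicate 1, WT PRO replicate 3 or WT DIFF replicate 1 in WT, and without any single library in p27KO. An intronic region at 26.8 kb (chr7:112131973-112132373) was at 16.6 in 1 of 2 p27KO PRO libraries and at 50.3 and 43.1 in p27KO DIFF, a rise of 1.41 ± 0.39 (adjusted p = 0.0384). In WT, where 8.63 and 25.9 were seen in 2 of 3 PRO and 46.1, 21.8 and 30.1 in the DIFF libraries, the change was 0.84 ± 0.32 (adjusted p = 0.0926). The p27KO call was lost without p27KO PRO replicate 1, p27KO DIFF replicate 1 or p27KO DIFF replicate 2.

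Ctnnb1, which encodes β-catenin, had no call in its own body. The region nearest to an annotated start (chr9:120933136-120934124) was at 45.4, 72.3 and 62 in WT PRO, 60.1, 65.2 and 73.4 in WT DIFF, 77.4 and 70.6 in p27KO PRO, and 69.2 and 75.7 in p27KO DIFF, with changes of 0.31 ± 0.21 (adjusted p = 0.346) and 0.14 ± 0.26 (adjusted p = 0.795). The only call in its window was a region at 47.2 kb inside the neighbouring Ulk4 (chr9:120976063-120976681), which was at 85.9, 94.2 and 86.1 in WT PRO and 94.6, 97.2 and 99.1 in WT DIFF. It rose by 0.80 ± 0.22 in WT (adjusted p = 0.0256, lost without WT PRO replicate 1, WT PRO replicate 3, WT DIFF replicate 2 or WT DIFF replicate 3) and changed by 0.69 in p27KO (adjusted p = 0.126). Ranked by the -log10 p-value of the peak, it passed in p27KO as well, at 0.62 (adjusted p = 0.0408).

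Among the TCF/LEF factors, Lef1 had only weak peaks in the region at its 5′ start. That region (chr3:131110227-131110672) was at 7.9, 15.3 and 7.46 in WT PRO, at 6.99 in WT DIFF replicate 3 alone, at 20.7 in p27KO PRO replicate 1 alone, and at 3.46 and 7.53 in p27KO DIFF. Others within 3 kb of an annotated Lef1 start reached higher percentiles. The one at 0.8 kb had a peak in 8 of 10 libraries, at 7.92 to 35.2. The one at 1.9 kb had a peak in 9 of 10, at 8.01 to 51. No Lef1 region passed the threshold in any contrast. Of its 17 regions, 3 closed in p27KO and 0 in WT. Over all regions, too, closing was more frequent in p27KO (7.88%) than in WT (3.12%), where it has to hold over more libraries. List lengths differed as well. Both p27KO PRO lists (83854 and 91801 peaks) were longer than both p27KO DIFF lists (67589 and 73220). In WT the lengths overlapped, with 76372 to 80179 peaks at PRO and 57534 to 88738 at DIFF. The difference between genotypes at Lef1 was not tested.

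Tcf7 was open at its start in all libraries, at 69.1, 72.2 and 70.7 in WT PRO, 66.6, 72.8 and 83.3 in WT DIFF, 75 and 73.4 in p27KO PRO, and 72.4 and 82.1 in p27KO DIFF, with changes of 0.25 ± 0.17 (adjusted p = 0.337) and 0.29 ± 0.21 (adjusted p = 0.42). An intronic region at 28.8 kb (chr11:52253938-52254252) was the only member region whose changes in the genotypes differed at an unadjusted p under 0.05. It was at 40.5 in WT PRO replicate 1 alone and at 38, 4.03 and 58.4 in WT DIFF, whereas p27KO had 43.9 and 39.8 at PRO and no peak at DIFF. The changes were 1.01 ± 0.31 in WT (adjusted p = 0.0405, lost without WT PRO replicate 2, WT PRO replicate 3, WT DIFF replicate 1 or WT DIFF replicate 3) and -0.85 ± 0.38 in p27KO (adjusted p = 0.181), and their difference had an unadjusted p of 0.00272 and an adjusted p of 1. The limit of 50 kb cut through 1 Tcf7 region (chr11:52332691-52334095), with peak summits inside it at 49.98 kb and outside it from 50.01 kb, and the region was kept as a member.

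Tcf7l1 encodes the family member best known as a repressor in stem cells. Its start site (chr6:72788051-72789738, minus strand) was at 84.7, 76.4 and 83.9 in WT PRO, 72.8, 77 and 87.2 in WT DIFF, 84.4 and 85.8 in p27KO PRO, and 81.5 and 77 in p27KO DIFF, with changes of 0.02 ± 0.18 (adjusted p = 0.947) and -0.08 ± 0.22 (adjusted p = 0.868). An intronic region at 122.0 kb (chr6:72667185-72667591) opened in both genotypes. It had no peak in any of the 5 PRO libraries and stood at 36.1, 27.1 and 68.8 in WT DIFF and 75.5 and 46.4 in p27KO DIFF. The rises were 1.64 ± 0.23 (adjusted p = 0.000717) and 2.11 ± 0.29 (adjusted p = 0.00117), and the WT call was kept without any single library. The region met the filter of 5 libraries only through its DIFF peaks. These p-values were therefore not independent of the filter, which was not reapplied when a library was left out. Another intronic region, at 74.2 kb, closed in both genotypes, from 7.8, 14.8 and 18.2 in WT PRO and 39.5 and 38.6 in p27KO PRO, although its changes by rank did not pass the threshold (-0.30 and -0.77, adjusted p = 0.364 and 0.0825). When ranked by the -log10 p-value of the peak, these became -0.92 and -1.42 (adjusted p = 0.00941 and 0.00483). The region at 74.2 kb met the filter only through its PRO peaks, so its tests, too, were not independent of the filter. Of the other regions, those at 129.0 kb (-0.94) and 40.7 kb (-0.63) fell and one at 33.8 kb rose (0.59) in WT, and those at 40.7 kb (-0.81) and 61.3 kb (-0.96) fell in p27KO, with adjusted p of 0.0153, 0.0401, 0.0467, 0.0451 and 0.0459 in that order. Each of these 5 calls was lost without at least 1 library, the one at 129.0 kb without WT PRO replicate 1 only.

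Tcf7l2 had 5 of its 13 tested regions called in WT, the highest count of the 10 genes, which had between 2 and 20 tested regions. Over all tested regions, 19.2% were called in WT. It encodes a TCF factor widely used by β-catenin and spans chr19:55741820-55933654 on the plus strand, with no other protein-coding gene within 50 kb. The region at its 5′ start (chr19:55741262-55741938) stayed between 64.9 and 75.1 in all 10 libraries, with changes of -0.05 and 0.04 (adjusted p = 0.869 and 0.94). The region at an internal start 153.7 kb along the gene (chr19:55895392-55896201) was at 78.7, 84.3 and 85.1 in WT PRO, 42.2, 59.9 and 76.9 in WT DIFF, 86 and 78.5 in p27KO PRO, and 66.5 and 74.6 in p27KO DIFF. DIFF was below PRO in both genotypes without overlap, but the changes were -0.54 ± 0.20 (adjusted p = 0.0821) and -0.23 ± 0.24 (adjusted p = 0.606). With a peak required in all 10 libraries, the WT change was -0.81 and passed the threshold (adjusted p = 0.0468). Among start-site regions of all genes, those of Sdr9c7, Spag16 and Erg had the pattern most like this internal start, with Pearson r of 0.948, 0.946 and 0.942 over the 10 libraries, which share their condition, list length and genotype.

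The largest fall of the group lay in an intron of Tcf7l2, 109.9 kb from the start (chr19:55851530-55852101). It was at 73.1, 66.5 and 60.6 in WT PRO and at 9.62 in WT DIFF replicate 3 alone, and at 70.9 and 77.6 in p27KO PRO with no peak in p27KO DIFF. PRO and DIFF were far apart in both genotypes, with changes of -1.50 ± 0.18 (adjusted p = 0.000279) and -1.82 ± 0.22 (adjusted p = 0.00068), both kept without any single library. Behind the gene end, a region at 228.2 kb (chr19:55969783-55970637) fell in the same way, from 80.5, 78.6 and 60.6 to 16.6, no peak and 34.3 in WT, and from 81.5 and 89.7 to 12 and 43.1 in p27KO. Its changes were -1.30 ± 0.24 (adjusted p = 0.00372) and -1.37 ± 0.30 (adjusted p = 0.013, lost without p27KO PRO replicate 2 or p27KO DIFF replicate 1). Another, at 209.8 kb, closed in WT, from 55.7, 48 and 30.7 to no peak (-1.08 ± 0.25, adjusted p = 0.012). In p27KO it was at 43.9 and 49.2 at PRO and at 21.1 in 1 of 2 DIFF libraries (-0.59 ± 0.31, adjusted p = 0.26).

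Regions that rose stood between these. At 199.2 kb, also behind the gene end (chr19:55940575-55941710), a region with no peak in WT PRO was at 49.6, 41.1 and 56.5 in WT DIFF, and in p27KO it went from 5.62 in PRO replicate 2 alone to 58.3 and 67.2. The rises were 1.69 ± 0.20 (adjusted p = 0.000268) and 1.92 ± 0.24 (adjusted p = 0.000855), both kept without any single library. At 182.4 kb, in an exon (chr19:55923932-55924336), the region was at 27.7 and 29.8 in 2 of 3 WT PRO libraries and at 56, 45.1 and 71.6 in WT DIFF, a rise of 1.26 ± 0.24 (adjusted p = 0.00433). In p27KO it went from 54.3 and 43.1 to 62.7 and 71.5 without overlap (0.76 ± 0.30, adjusted p = 0.132). That change passed the threshold, at 0.92 and 0.93, when only the top peaks of each list or only peaks with a -log10 q-value of at least 5 were used (adjusted p = 0.0226 and 0.0298).

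**Figure D3:**
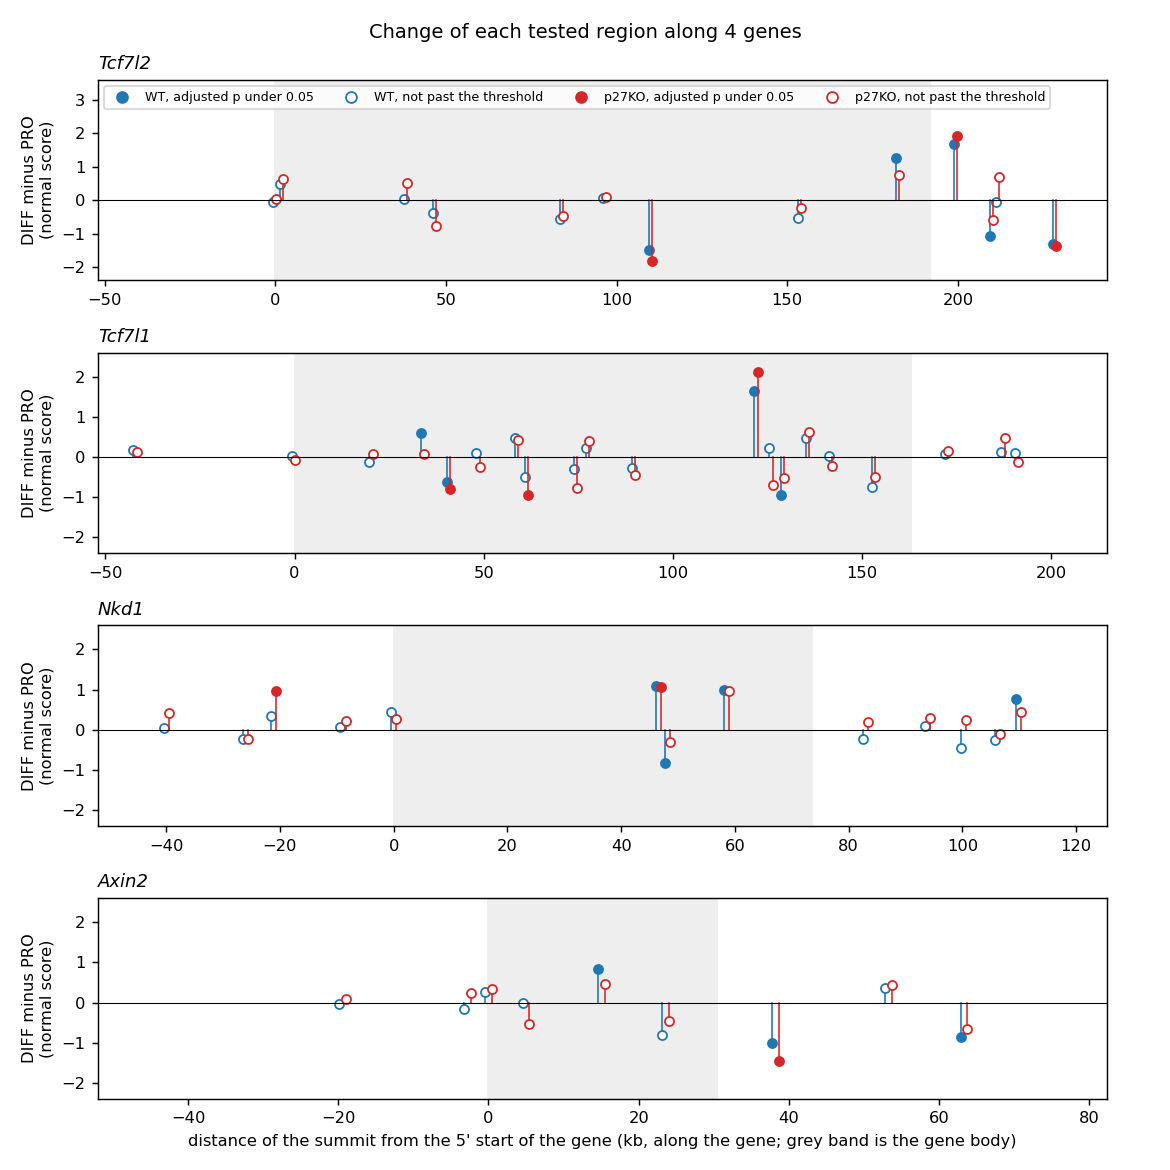
Change of each tested region (vertical axis, difference of mean normal scores, DIFF minus PRO) by distance from the 5′ start (horizontal axis, kb; grey band is the gene body) for Tcf7l2, Tcf7l1, Nkd1 and Axin2, in WT (blue) and p27KO (red). Filled points have adjusted p under 0.05. At Tcf7l2 the moving regions lie from 109.9 to 228.2 kb and none at the 5′ start.

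The windows of the regions that moved most at Tcf7l2 and Tcf7l1 are given next, again on the plus strand of GRCm38 with the capitals explained for Axin2. The window at 228.2 kb holds an AP-1 match at its centre and an E-box, and the others hold none of the searched letters. No region at Tcf7l2 held TCF/LEF letters in its window (0 of 23), while 6 of 23 held SOX letters.
Tcf7l2 +109.9 kb, chr19:55851546-55851845: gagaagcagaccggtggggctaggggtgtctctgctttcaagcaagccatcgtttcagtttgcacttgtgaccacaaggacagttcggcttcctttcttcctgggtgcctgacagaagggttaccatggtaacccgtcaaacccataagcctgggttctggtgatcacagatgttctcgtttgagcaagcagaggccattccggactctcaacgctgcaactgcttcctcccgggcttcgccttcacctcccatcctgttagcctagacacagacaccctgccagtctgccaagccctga
Tcf7l2 +199.2 kb, chr19:55940828-55941127: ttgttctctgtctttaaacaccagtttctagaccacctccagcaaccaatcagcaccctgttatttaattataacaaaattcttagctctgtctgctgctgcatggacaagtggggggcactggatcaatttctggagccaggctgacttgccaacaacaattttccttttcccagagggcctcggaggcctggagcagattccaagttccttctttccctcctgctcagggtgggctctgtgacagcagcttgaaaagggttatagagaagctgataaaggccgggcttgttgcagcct
Tcf7l2 +228.2 kb, chr19:55969856-55970155: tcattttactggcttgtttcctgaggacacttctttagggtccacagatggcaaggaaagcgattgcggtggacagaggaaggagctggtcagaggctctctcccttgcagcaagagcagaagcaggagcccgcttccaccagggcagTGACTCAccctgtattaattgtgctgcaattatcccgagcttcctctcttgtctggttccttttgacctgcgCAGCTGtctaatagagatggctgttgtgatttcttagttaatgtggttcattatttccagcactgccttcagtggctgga
Tcf7l1 +122.0 kb, chr6:72667105-72667404: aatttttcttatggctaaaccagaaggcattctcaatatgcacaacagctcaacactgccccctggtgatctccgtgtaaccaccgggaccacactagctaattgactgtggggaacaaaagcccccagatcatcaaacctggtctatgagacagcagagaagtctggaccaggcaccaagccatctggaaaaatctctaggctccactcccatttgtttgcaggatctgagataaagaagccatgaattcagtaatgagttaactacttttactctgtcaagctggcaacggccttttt

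**Figure D4:**
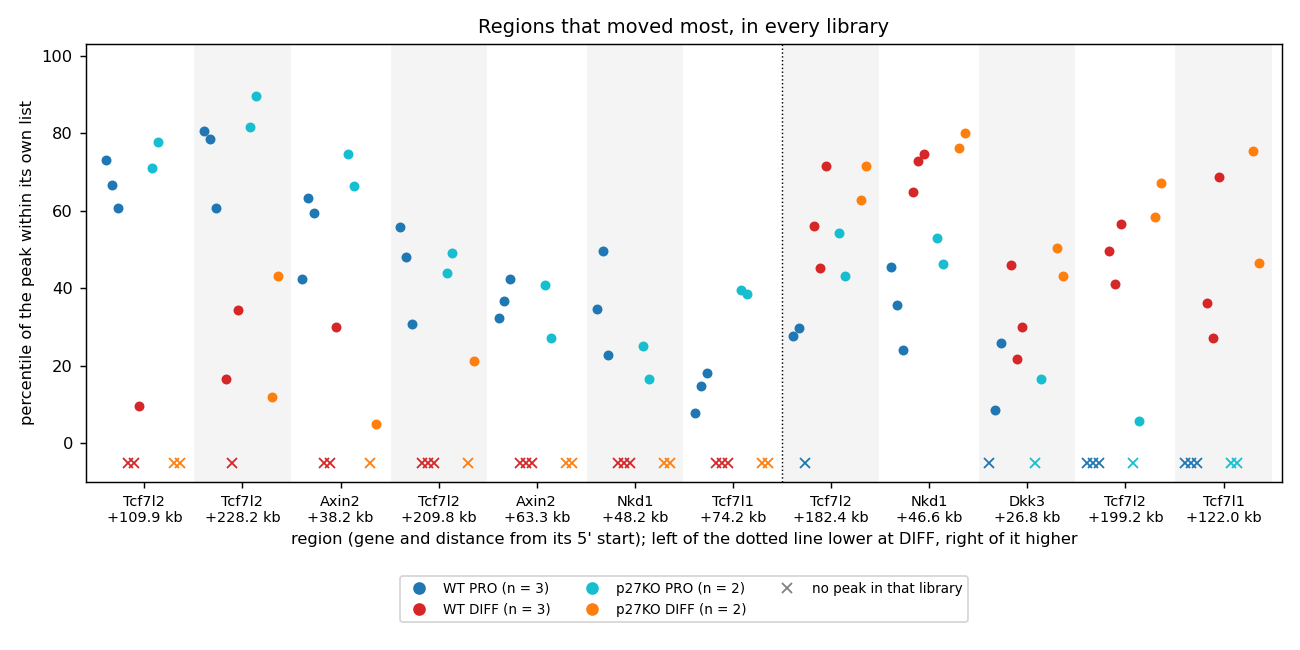
Percentile of the strongest peak within its own list (vertical axis) in every library (points, coloured by group; crosses mark libraries without a peak) for 12 named regions (horizontal axis). Regions left of the dotted line had a lower and those right of it a higher mean score at DIFF, in both genotypes.

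The p27KO libraries moved in the same direction as the WT libraries at nearly all of these places. Of the 20 regions called in WT, 19 had a change of the same sign in p27KO, the exception being the Tcf7 region at 28.8 kb, and all 11 called in p27KO had the same sign in WT. The shares with the same sign over all called regions were not computed, so these counts are not read as particular to the members. Both genotypes called 8 regions, in the same direction each time, which was 40% of the WT calls and 72.7% of the p27KO calls. Over all tested regions these shares were 51.2% and 79.9%. The 8 were Axin2 at 38.2 kb, Dkk3 45.5 kb before the start, Nkd1 at 46.6 kb, Tcf7l1 at 40.7 and 122.0 kb, and Tcf7l2 at 109.9, 199.2 and 228.2 kb.

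A difference between genotypes was not found at any member region. The test of whether the change from PRO to DIFF differed between p27KO and WT called 0 of 92 regions, as it called 0% of all tested regions, and 1 of 92 (1.09%) had an unadjusted p under 0.05, beside 3.91% of all tested regions. At PRO, p27KO against WT called 0 of 92 regions (4 with an unadjusted p under 0.05) beside 0.034% of all tested regions, and at DIFF 0 of 92 (2 unadjusted) beside 0.0156%. The unadjusted counts were 4.35% and 2.17% of the members, against 5.53% and 4.91% of all tested regions. With 2 p27KO libraries per condition, these counts do not show that the genotypes were alike.

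**Figure D5:**
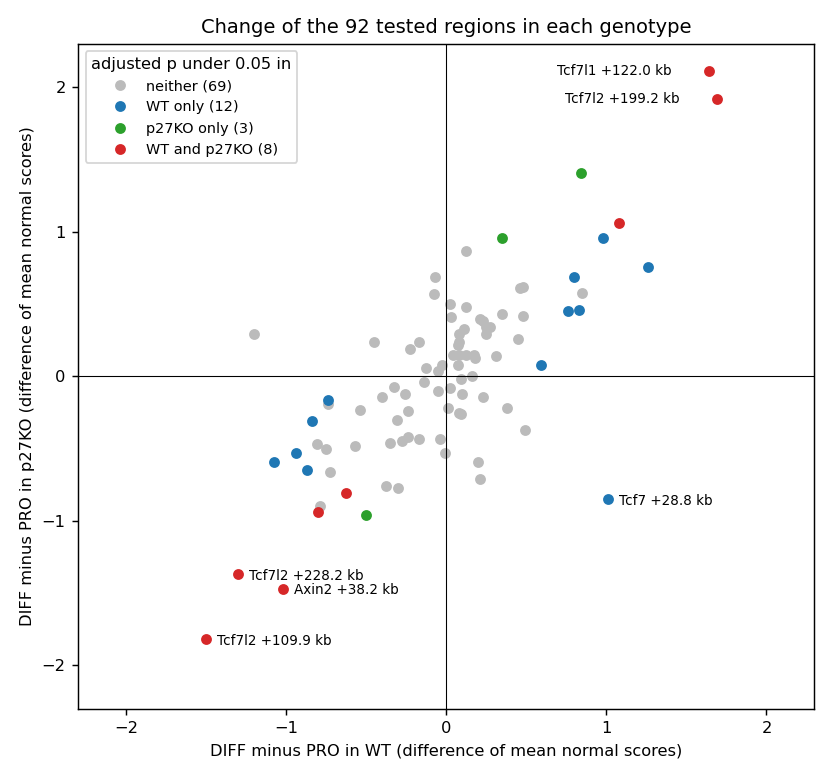
Change from PRO to DIFF of the 92 tested regions in WT (horizontal axis) and p27KO (vertical axis), both as differences of mean normal scores, coloured by the genotype in which adjusted p was under 0.05. The 8 regions called in both (red) lie at the lower left and upper right, and Tcf7 at 28.8 kb lies alone in the lower right.

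Few start sites of other genes of the pathway passed the threshold. Of 75 listed genes, 74 were in the annotation, 72 had a start-site peak in at least 1 library, 56 had one in all 10, and 63 were tested. Start-site peaks were in all 10 libraries at 15 of 15 receptors and co-receptors and 13 of 13 genes of the cytoplasmic relay and destruction complex. They were less complete at the ligands (7 of 16, with no peak at Wnt3a and Wnt10a), the R-spondin arm (5 of 8), the secreted inhibitors (7 of 11) and the nuclear partners (9 of the 11 found in the annotation). In each genotype 1 of the 63 tested start sites passed the threshold. Over all start-site regions of protein-coding genes, 4.82% passed in WT and 2.3% in p27KO. Dvl2, a Dishevelled adaptor that relays the signal from Frizzled, was at 25, 38.4 and 33.5 in WT PRO and 40.6, 50.6 and 57.8 in WT DIFF, a rise of 0.63 ± 0.20 (adjusted p = 0.0441), and changed by 0.32 in p27KO (adjusted p = 0.458). Hdac1, a histone deacetylase that can act with TCF repressor complexes, was at 90 and 87.6 in p27KO PRO and 94.8 and 97.5 in p27KO DIFF, a rise of 0.71 ± 0.21 (adjusted p = 0.0469), and changed by 0.16 in WT (adjusted p = 0.57). Each of these calls was lost without any single library of its genotype, and both were lost when p-values were adjusted over start-site regions alone. The median change over the 63 tested genes was 0.08 in WT and 0.19 in p27KO, beside 0.12 and 0.14 over all start-site regions.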

How the data were processed

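ATAC-seq libraries were trimmed by the authors with Cutadapt and Trimmomatic, aligned to GRCm38 with Bowtie2, marked for duplicates with Picard, and called singly with MACS2 in narrow mode at an FDR of 0.05; versions are not given in the sources used here. The deposited lists give each peak's fold enrichment, -log10 p-value, -log10 q-value and summit. Read depth is unknown, so no counting error could be computed.

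Peaks of the 10 lists overlapping by at least 1 bp were merged, and each region took the highest fold enrichment per library. Regions found in 5 or more libraries were ranked, and the ranks turned into normal scores and fitted with limma 3.58.1 (R 4.3.3) with 1 mean per group and Benjamini-Hochberg adjustment over all regions at 0.05. A region with a peak in every PRO or every DIFF library met this filter through that condition alone. The filter was not reapplied when a library was left out. The steps were tested on simulated data.

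Members and lists were chosen with earlier results of these data known. The text names start-site regions, the 3 largest falls and rises past the threshold per genotype, regions closed or opened in both genotypes, pathway start sites past the threshold, and the 3 start sites most like the internal Tcf7l2 start. All other named regions were chosen after their values were seen. Alternatives covered the window, ranking measure, filter, peak minimum, merging, replicate block, samples fitted and leaving out each library.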

Additional observations from a re-analysis of the deposited data

How the results depend on the processing

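No member region or Dvl2 or Hdac1 start site past the threshold changed sign under any alternative tried; sign changes that did not pass in either setting were not counted. With regions required in all 10 libraries, which left 49 to test, the calls numbered 8 in WT and 2 in p27KO, and fitting only the groups compared gave 7 in p27KO. Leaving out 1 library gave 11 to 16 calls in WT and 5 to 7 in p27KO, where the lone remaining library was assumed to vary like the other groups. Of the calls, 6 of 20 in WT and 3 of 11 in p27KO were kept in every alternative that gave a value. The 3 comparisons between genotypes gave 0 in every alternative. Regions closed in WT numbered 5 with a 10 kb window and 8 to 18 when leaving out a library, and those opened 1 with -log10 q of at least 5 and 2 to 4. In p27KO, 6 closed and 5 opened among the top peaks of each list, and 16 to 28 closed and 5 to 11 opened when leaving out a library. Because leaving out a library loosens the rule, the counts by presence could then only stay the same or rise. Pathway start sites called in WT numbered 2 among the top peaks and with -log10 q of at least 5 (1 lower, 1 higher in each), 1 when ranked by -log10 p or with a peak in at least 2 libraries, which was lower and so not the rise at Dvl2, and 0 when adjusted over start sites, required in all 10 libraries, binned by summit, blocked or fitted on the groups compared. In p27KO they numbered 0 under the same settings except the block, where the 1 call was lower and so not the rise at Hdac1, and 0 with a peak in at least 2 libraries and with the crossed block. Leaving out a library gave 0 to 0 in both genotypes. Same-numbered libraries correlated between -0.141 and 0.065, so the numbers were not taken as pairs; the replicate block gave 20 calls in WT and 8 in p27KO, and a crossed pairing in p27KO, chosen after seeing the data, gave 8. The cause of these shifts was not tested.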
